A study of Mus musculus with 15 samples.

Results

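RNA from 3 end-stage Mut3 tumors was compared with RNA from 3 naive mouse brains, which are 6 of the 15 samples of the study, and all 17481 genes that passed the filter on low counts were tested. The samples were chosen by their labels. Mut3 is a glioblastoma line from genetically altered mice, made by inactivating the tumor suppressors Nf1 and p53 (gene Trp53). The Mut3 line carries GFP and firefly luciferase from a retroviral vector, was sorted for GFP, and was cultured as neural stem cells are, without serum and with EGF and FGF-2. C57BL/6 mice of 6 to 8 weeks received 500000 Mut3 cells in the right hemisphere and were perfused with PBS at the humane endpoint, when tumor tissue was taken; the other lines were implanted at 100000 cells. The naive samples are brain tissue of C57BL/6 mice without a tumor, and the sources used here do not say which region of the brain was taken or how old any mouse was at harvest. All the Mut3 tumors come from 1 line, so the 3 tumors are replicates of that line and not of a class of tumor. The other 9 samples are tumors of the lines CT2A, GL261 and 005 (3 each) and enter only where Mut3 is set against the mean of these lines.

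In glioma, cells at the oligodendrocyte progenitor stage keep dividing under the control of factors such as OLIG2 and SOX2 and do not go on to make myelin. Loss of NF1 takes a brake off RAS, and loss of p53 removes an arrest point of the cell cycle. Genes of the cell cycle are switched on in waves. E2F factors bind promoters of DNA replication genes, and genes of mitosis often carry a CHR element a short way upstream of their start together with CCAAT boxes bound by the factor NF-Y.

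The promoters of a few cell cycle genes are shown because nearly every gene of this kind was higher in Mut3, as described below. Those printed were picked for their matches, a CHR element with a CCAAT box for mitosis genes and an E2F site for replication genes. Stretches that overlap an exon were left out, and promoters such as those of Nusap1 and Tyms had no match in 120 bases. The letters searched, on either strand, were CCAAT for the CCAAT box, TTTGAA for the CHR element, and TTTCCCGC, TTTGGCGC, TTTCGCGC and TTTGCCGC for the E2F site. The 120 bases before the start of each gene are given 5′ to 3′ on the strand of the gene (RefSeq, GRCm38.p6), in lower case with the matches in capitals, where matches that overlap on opposite strands run together. Top2a encodes a DNA topoisomerase that untangles chromosomes (chr11:99024190-99024309, minus strand), Kif11 a spindle motor (chr19:37376262-37376381, plus strand) and Mcm6 a subunit of the replicative helicase (chr1:128359706-128359825, minus strand).
Top2a: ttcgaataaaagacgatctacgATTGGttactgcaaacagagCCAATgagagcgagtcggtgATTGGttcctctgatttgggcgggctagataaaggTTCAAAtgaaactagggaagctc
Kif11: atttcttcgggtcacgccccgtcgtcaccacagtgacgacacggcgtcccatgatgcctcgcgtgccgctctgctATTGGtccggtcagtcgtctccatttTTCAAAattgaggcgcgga
Mcm6: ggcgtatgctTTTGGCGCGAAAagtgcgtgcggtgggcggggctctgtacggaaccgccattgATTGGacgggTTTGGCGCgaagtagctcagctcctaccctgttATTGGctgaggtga
Within 250 bases before the start, a CCAAT box was present in 14 of 17 promoters of the mitosis list and in 14 of 17 of the DNA replication list (82.4% each), against 36.3% of the 11916 tested genes that have a promoter in the table. The CHR letters were present in 35.3% of the mitosis promoters and 11.8% of the replication promoters, against 1312 of the 11916 tested genes. An E2F site was present in 29.4% of the replication promoters and 5.88% of the mitosis promoters, against 3.18%. These are matches of letters, with no measurement of binding.

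The total count was between 3105119 and 5161132 in naive brain and between 7525006 and 11308105 in Mut3. At these depths 3 counts, the floor used here, equal 0.612 to 0.811 normalized CPM (counts scaled to a common library size with edgeR's TMM factors) in naive brain and 0.264 to 0.378 in Mut3. Intervals and floors cover counting error only. In naive brain 14.97% to 24.0% of the counts came from mitochondrial genes, and in Mut3 5.36% to 5.96%. Naive replicate 2 had the lowest total, the lowest mitochondrial share of its group and the highest TMM factor of the 6 samples (1.298). A gene counted as called higher or lower in Mut3 where edgeR's quasi-likelihood test gave an adjusted p (Benjamini-Hochberg) below 0.05 and the log2 fold change was 1 or more in size. By this rule 17.9% of all tested genes were called higher and 19.8% lower, and the median log2 fold change of all tested genes was 0.11. The median was 0.29 when mitochondrial genes were left out and 0.31 without naive replicate 2. On log2(TPM + 1) it was −0.47, with 1072 genes called higher and 3727 lower against 3135 and 3466 in the counts, so the balance of gains and losses depends on the scale. Values below are normalized CPM of replicates 1, 2 and 3 in that order, with the log2 fold change (Mut3 minus naive) and its standard error (SE).

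Trp53 and Nf1, which were inactivated in the line, were both called higher. Trp53 (ENSMUSG00000059552, chromosome 11, 69580359 to 69591873) stood at 86.7, 51.6 and 43.0 in Mut3 and at 8.98, 13.9 and 9.19 in naive brain, a log2 fold change of 2.50 (SE 0.35, adjusted p = 0.0002967). The groups did not overlap. Nf1, a RAS GTPase activating protein (ENSMUSG00000020716, chromosome 11, 79339693 to 79581612), stood at 21.6, 13.7 and 14.9 in Mut3 and at 6.32, 9.47 and 8.38 in naive brain. Its log2 fold change of 1.05 (SE 0.36, adjusted p = 0.03191) was no longer called without Mut3 replicate 1 or 3 or without naive replicate 1 or 3. A count over a whole gene does not show whether single exons are missing, so these values do not check the inactivation of Nf1 and Trp53.

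Genes of cell division rose almost without exception. All 20 genes of the mitosis and spindle list were called higher, with a median log2 fold change of 5.17, and 19 of 20 DNA replication genes were called higher, with a median of 3.91, against 17.9% of all tested genes. On log2(TPM + 1) 18 and 17 of these genes were called higher. Nusap1, which bundles spindle microtubules, stood at 232, 126 and 276 in Mut3 and at 1.02, 0.747 and 3.52 in naive brain (log2 fold change 6.93, SE 0.82, adjusted p = 0.0001323). Cenpf, a kinetochore protein, stood at 664, 271 and 890 against 6.53, 8.22 and 5.41 (6.50, SE 0.83, adjusted p = 0.0001932). Mut3 replicate 2 was the lowest Mut3 tumor for both genes and was still far above every naive sample. No member of either list overlapped between the groups. Over all tested genes, Mut3 lay wholly above naive brain for 27.4%. Top2a, whose promoter is printed above, stood at 910, 347 and 618 against 9.79, 8.97 and 13.5 (5.86, SE 0.68, adjusted p = 0.0001242). Prc1, which bundles microtubules of the central spindle, rose by 6.31 and Tpx2, an activator of Aurora A, by 5.83 on the log2 scale. Aurkb, a kinase of the chromosomal passenger complex, rose by 6.02.

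Among replication genes, Uhrf1, which brings DNA methylation to new strands, rose by 5.38. Tyms, thymidylate synthase, rose by 5.25, Gins2, a part of the replicative helicase complex, by 5.13, and Rrm2, a subunit of ribonucleotide reductase, by 5.08. Pola1, a DNA polymerase subunit, had a log2 fold change of 0.94 (adjusted p = 0.01607), short of the fold threshold of 1, and was not called. Of 16 G1 cyclins, kinases and inhibitors, 6 were called higher (37.5%, against 17.9% of all tested genes) and 1 lower (6.25%, against 19.8%). Cdk6 stood at 43.1, 45.3 and 53.6 in Mut3 and at 2.04, 2.99 and 4.33 in naive brain (log2 fold change 3.93, SE 0.58, adjusted p = 0.0003947), and Cdk4 rose by 3.18. Both encode kinases that cyclin D activates. Ccnd2, a D cyclin, was lower (−2.31), with Mut3 at 3.02, 19.8 and 24.5 and naive brain at 115, 63.3 and 56.0. Its call was lost without Mut3 replicate 1 and without naive replicate 1. The inhibitor Cdkn2a, which encodes p16INK4a and p19ARF, had no count in naive brain and stood at 5.59, 4.66 and 9.06 in Mut3, at least 7.93-fold higher when naive brain is set at the highest of its floors per library. Cdkn1c, an imprinted inhibitor, stood at 36.2, 23.8 and 18.7 against 2.45, 2.99 and 3.52 (3.14, SE 0.56, adjusted p = 0.0009696).

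**Figure D1:**
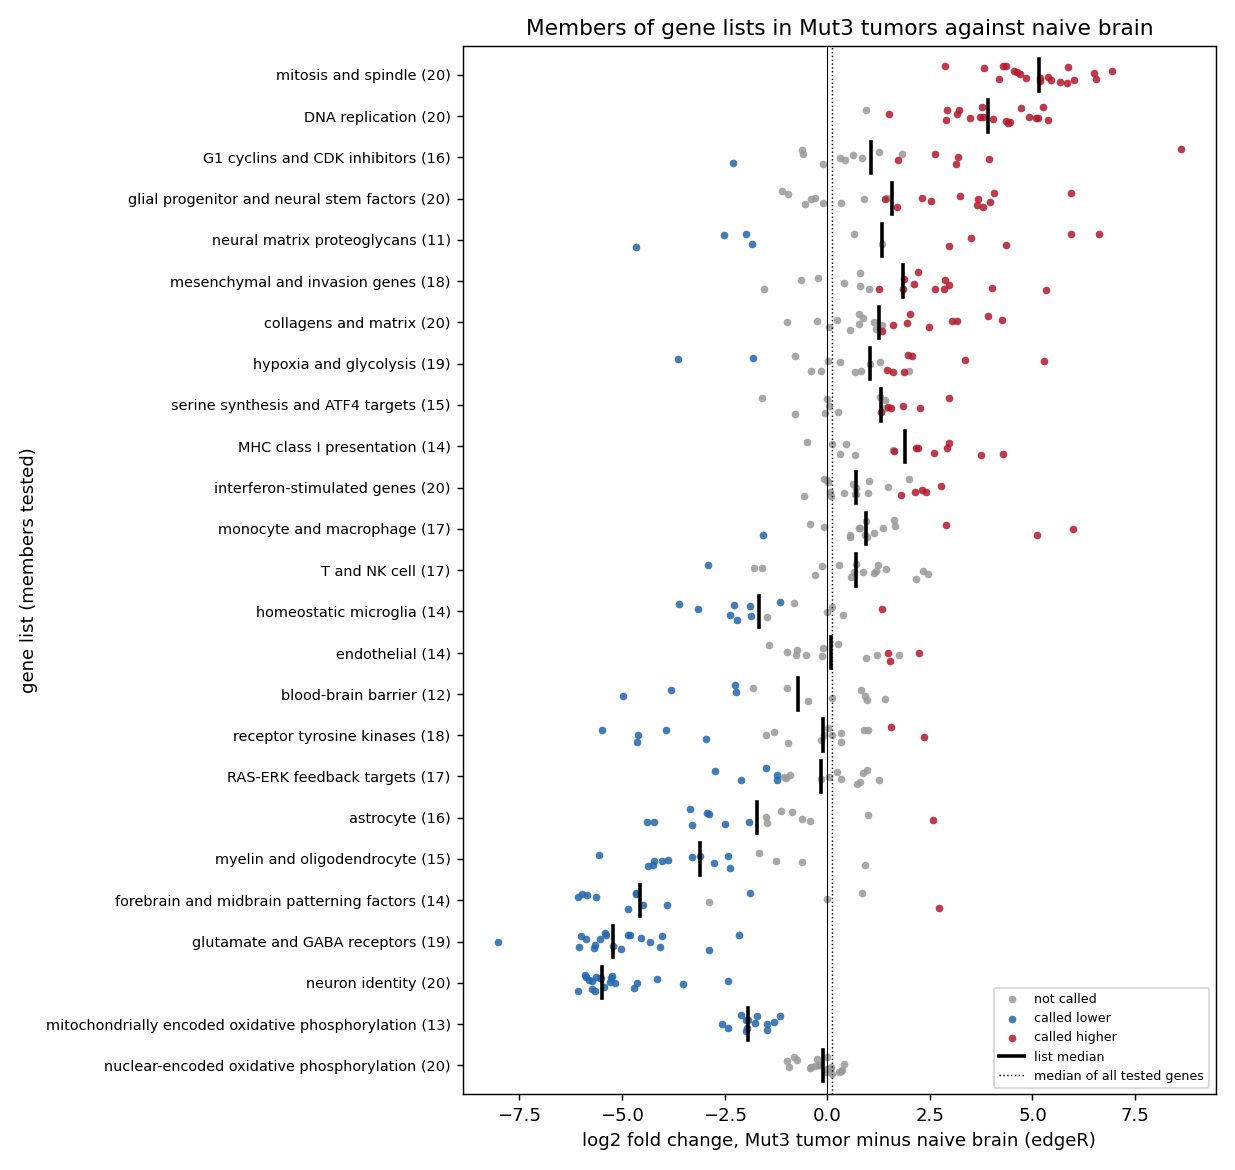
Log2 fold change of Mut3 tumors minus naive brain (x axis) for each tested member of 25 gene lists (y axis), with 1 point per gene, red for genes called higher, blue for genes called lower and grey for the others. Black bars mark the list medians, from 5.17 for mitosis to −5.48 for neuron identity, and the dotted line marks the median of all tested genes, 0.11.

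Many glial progenitor genes were gained. Of 20 progenitor and neural stem factors, 11 were called higher (55.0%, against 17.9% of all tested genes) and 0 lower, with a median log2 fold change of 1.58. Of the 20, 9 were called higher than in the other tumors. Over all tested genes, 8.11% of the tested genes were called higher and 12.3% lower in Mut3 than in the mean of the other tumors. Olig2, a factor of the oligodendrocyte lineage (ENSMUSG00000039830, chromosome 16, 91225457 to 91228677), stood at 207, 124 and 316 in Mut3 and at 9.996, 20.9 and 10.5 in naive brain (log2 fold change 3.96, SE 0.51, adjusted p = 0.0002027). Gpr17, a receptor of committed oligodendrocyte progenitors, stood at 183, 56.1 and 125 against 5.10, 12.2 and 4.60 (4.06, SE 0.57, adjusted p = 0.0003357). The groups did not overlap for either gene, and the highest naive value was that of replicate 2 in both. Nes, an intermediate filament of neural stem cells, rose by 3.79, Cspg4, which encodes the progenitor antigen NG2, by 3.67, and Nkx2-2, a partner of Olig2, by 3.64. Sox2, a stem cell factor, stood at 184, 105 and 88.0 against 16.1, 36.1 and 13.3 (2.52, SE 0.43, adjusted p = 0.0007589).

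Other defining members did not pass. Pdgfra, the PDGF receptor of progenitors, stood at 40.1, 18.9 and 38.3 in Mut3 and at 16.9, 21.7 and 13.8 in naive brain (0.89, SE 0.35, adjusted p = 0.05631). Sox10, an oligodendrocyte lineage factor, stood at 12.1, 10.3 and 9.06 against 5.30, 15.2 and 4.60 and overlapped between the groups (0.33, SE 0.59, adjusted p = 0.6803). On log2(TPM + 1), 8 of the 20 genes were called higher and 0 lower.

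**Figure D2:**
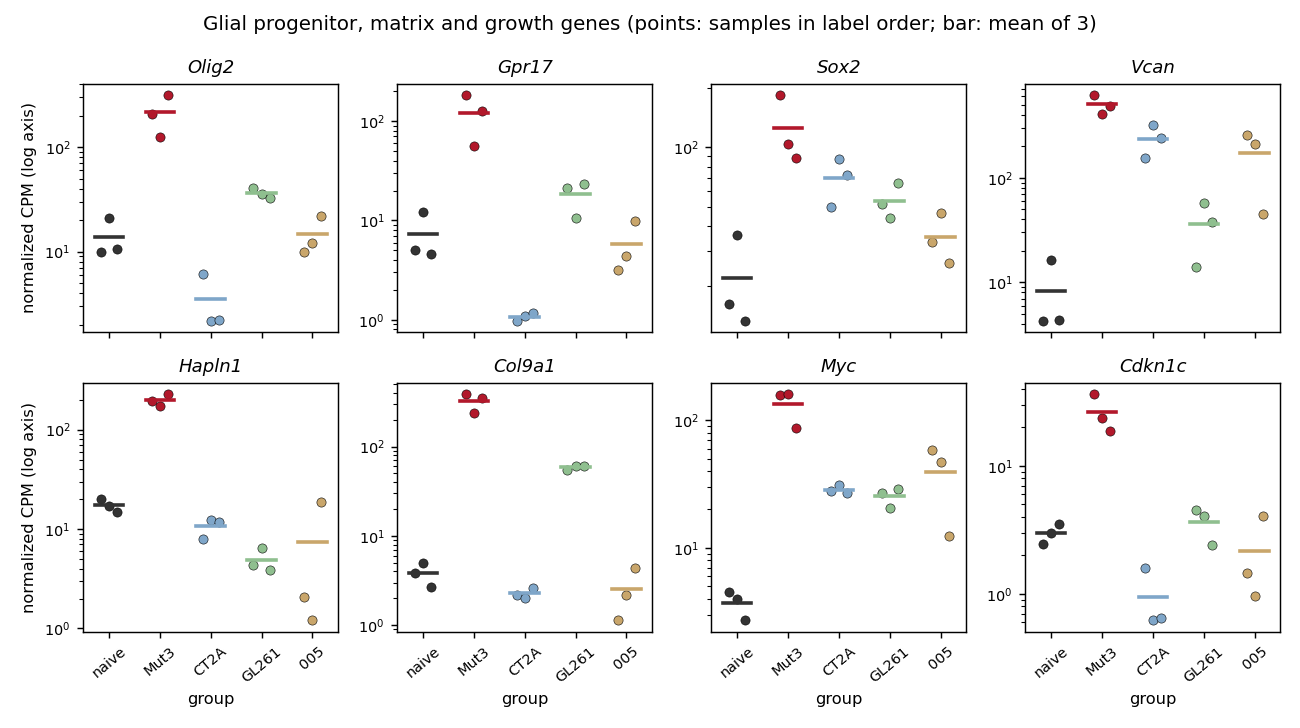
Normalized CPM (log axis) of glial progenitor, matrix and growth genes in each sample of the 5 groups, with a bar at the mean of 3. All 3 Mut3 tumors lie above all naive samples in every panel, for example at 124 to 316 against 9.996 to 20.9 for Olig2.

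Genes of mature oligodendrocytes went the other way. Of 15 myelin genes, 11 were called lower and 0 higher (median −3.10), against 19.8% of all tested genes, and 6 were called without naive replicate 2. Naive replicate 2 had the most myelin RNA, with a summed TPM of 1059 against 229.7 to 280.6 in the other naive samples and 42.2 to 81.4 in Mut3. Mobp, a myelin protein, stood at 5.93, 14.1 and 14.5 in Mut3 and at 177, 315 and 158 in naive brain (−4.23, SE 0.92, adjusted p = 0.002745). Ermn, a cytoskeletal protein of myelinating cells, fell by 4.36. Cnp, an early myelin enzyme, was the member that went against the list, at 143, 176 and 76.8 against 37.9, 135 and 36.0, which overlapped (0.92, SE 0.61, adjusted p = 0.243).

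Neuronal genes were lost most deeply. All 20 neuron identity genes were called lower (against 19.8% of all tested genes), with a median log2 fold change of −5.48 and no overlap between the groups. So were all 19 tested glutamate and GABA receptor genes, with a median of −5.22. Over all tested genes, Mut3 lay wholly below naive brain for 26%. The summed TPM of the neuron list was 20.8 to 48.4 in Mut3 and 1911 to 2296 in naive brain. Snap25, a protein of vesicle fusion, stood at 26.6, 59.5 and 56.6 in Mut3 and at 2369, 1810 and 3350 in naive brain (−5.72, SE 1.05, adjusted p = 0.001128). Nefl, a neurofilament, fell by 6.07, and Syt1, the calcium sensor of release, fell by 5.90. Bulk RNA cannot tell fewer cells of a type from less RNA per cell, here and below.

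The genes with the largest decreases among those still counted in Mut3 were of neurons too. Rbfox1, a neuronal splicing factor, stood at 1.01, 2.64 and 5.98 in Mut3 and at 297, 234 and 466 in naive brain (−6.67, SE 1.11, adjusted p = 0.0007067). Penk, which encodes enkephalin, fell by 6.54, and Tac1, which encodes substance P, fell by 6.42. Both are neuropeptide genes of the striatum. Arpp21, a striatal and cortical phosphoprotein gene, stood at 2.13, 30.4 and 9.41 against 1200, 1215 and 1386 (−6.50, SE 1.69, adjusted p = 0.00779). Nrn1, a neurite growth factor, fell by 6.42, and Gnao1, the G protein alpha subunit of brain, fell by 6.20. Some genes were lower in Mut3 than in both naive brain and the other tumors. Among protein-coding ones with a mean TPM of at least 10 in naive brain, Grin2b, Mlip, Ajap1 and Wnt7a were among the 5 largest decreases. Wnt7a, a ligand of brain vessel development, stood at 0, 0.126 and 0.0880 in Mut3 and at 6.53, 25.4 and 17.8 in naive brain. Its 2 counts in Mut3 against 200 in naive brain make it 224-fold lower (95% counting interval 61.2 to 1860).

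Factors that pattern the forebrain fell with the neurons. Of 14 tested forebrain and midbrain factors, 10 were called lower (71.4%, against 19.8% of all tested genes), 1 was called higher and 3 were not called. Of the 14, 7 were lower than in the other tumors (against 12.3% of all tested genes). Lhx2, a cortical selector, stood at 0.448, 0.252 and 0.264 in Mut3 and at 21.8, 25.7 and 16.2 in naive brain (−5.98, SE 0.88, adjusted p = 0.0004037). Dlx1, a factor of inhibitory neurons, fell by 3.89, and Emx2, a cortical factor, fell by 4.65. Emx2 stood at 0.112, 0.252 and 0.0880 in Mut3, below the floors, and Lhx2 was near them, so both folds rest on few counts. Pax6, a factor of cortical progenitors, fell by 1.88, a call lost without Mut3 replicate 2 or naive replicate 3. The neuron list moved with these factors, as given above, and its part in their loss was not tested.

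En2, a factor of midbrain and cerebellum, was the member called higher, at 2.35, 3.40 and 5.54 in Mut3 and at 0.408, 1.25 and 0 in naive brain (2.73, SE 0.94, adjusted p = 0.0309), a call lost without Mut3 replicate 2 or 3 or without naive replicate 1 or 3. Hox genes, which pattern the body behind the midbrain, passed the filter on low counts at 12 of 39 loci. Of these, 6 were called higher than in naive brain (50.0%, against 17.9% of all tested genes) and 0 lower. The filter ran over all 15 samples, so a Hox gene near 0 in naive brain entered through tumors where it was counted. Such a gene could hardly be called lower, so no conclusion is drawn from the share. All 6 lie in the Hoxa cluster on chromosome 6. On log2(TPM + 1) 2 of 4 tested Hox genes were called higher, and on TPM rescaled to nuclear protein-coding genes 3 of 10. Against the other tumors 3 Hox genes were higher and 3, Hoxa10, Hoxc9 and Hoxd8, were lower in Mut3 (median −0.70). Over all tested genes the shares were 8.11% higher and 12.3% lower. Hoxa5 (52201754 to 52204587) stood at 25.1, 46.3 and 29.2 in Mut3 and at 0.612, 0.747 and 0 in naive brain (6.11, SE 0.78, adjusted p = 0.0001899). Hoxa7 stood at 8.06, 5.66 and 1.58 against 0, 0.249 and 0, with means of 27.4 in CT2A and 24.2 in 005. Hoxa9 and Hoxa13 had no count in naive brain and were at least 2.96-fold and 3.38-fold higher in Mut3. The call of Hoxa9 was lost without Mut3 replicate 1 or 2 and without any 1 of the naive samples. Whether the counting used strand is not given in the sources used here, so reads of these genes and of their antisense neighbors cannot be told apart.

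**Figure D3:**
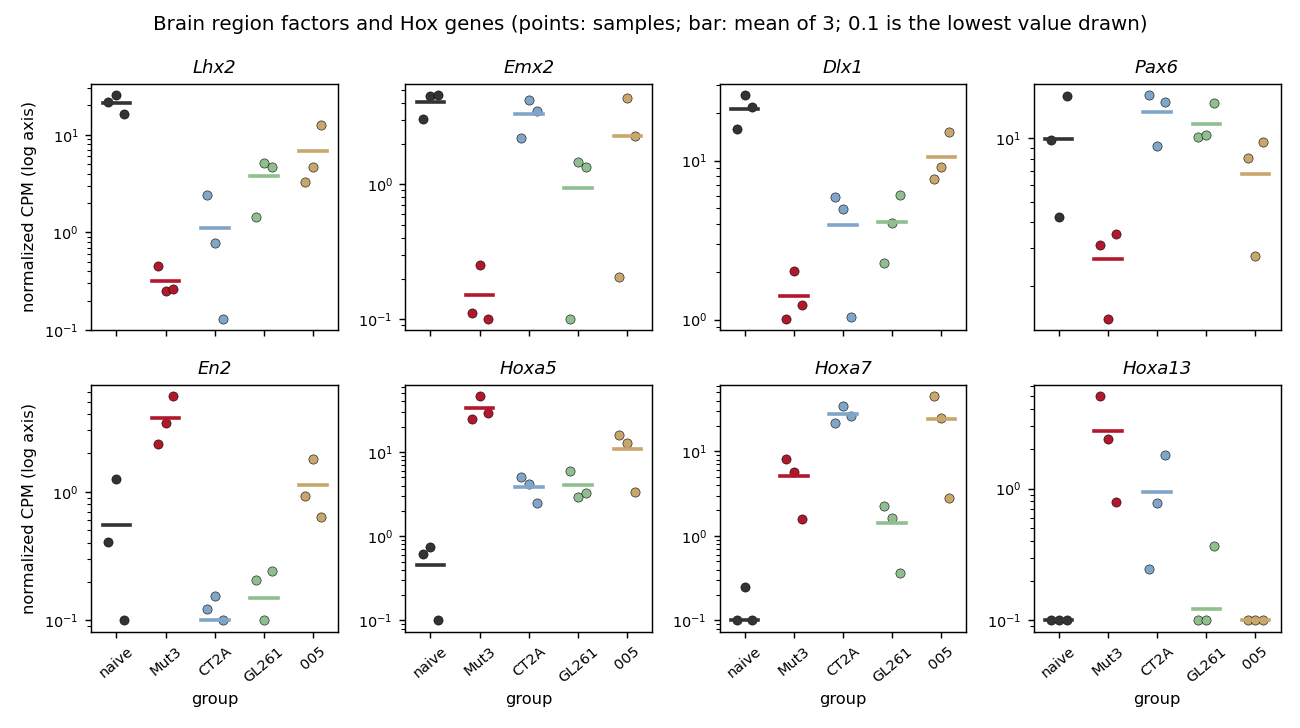
Normalized CPM (log axis) of brain region factors and Hox genes in each sample of the 5 groups, with a bar at the mean of 3 and samples below 0.1 drawn at 0.1. Lhx2, Emx2, Dlx1 and Pax6 lie lower in Mut3 than in naive brain, and En2, Hoxa5, Hoxa7 and Hoxa13 higher.

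Cnmd, Col9a1 and Col11a1 were among the 10 protein-coding genes with the largest increases. They are known from cartilage matrix, a grouping made after their values were seen. Cnmd, which encodes chondromodulin (ENSMUSG00000022025, chromosome 14, 79637690 to 79662170), stood at 252, 644 and 1242 in Mut3 and at 7.14, 9.96 and 7.84 in naive brain (6.42, SE 0.57, adjusted p = 2.153e-05). Col9a1, a collagen IX chain (ENSMUSG00000026147, chromosome 1, 24177610 to 24252684), stood at 384, 238 and 349 against 3.88, 4.98 and 2.70 (6.38, SE 0.47, adjusted p = 7.055e-06). Col11a1, a collagen XI chain, stood at 146, 223 and 654 against 2.24, 5.98 and 7.03 (6.08, SE 0.60, adjusted p = 4.336e-05). Cnmd and Col11a1 varied by several fold between the Mut3 tumors, yet the groups were far apart. GL261 tumors held much of this RNA too, with means of 438 for Cnmd, 181 for Col11a1 and 58.7 for Col9a1, against 2.27 to 23.1 in CT2A and 005.

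**Figure D4:**
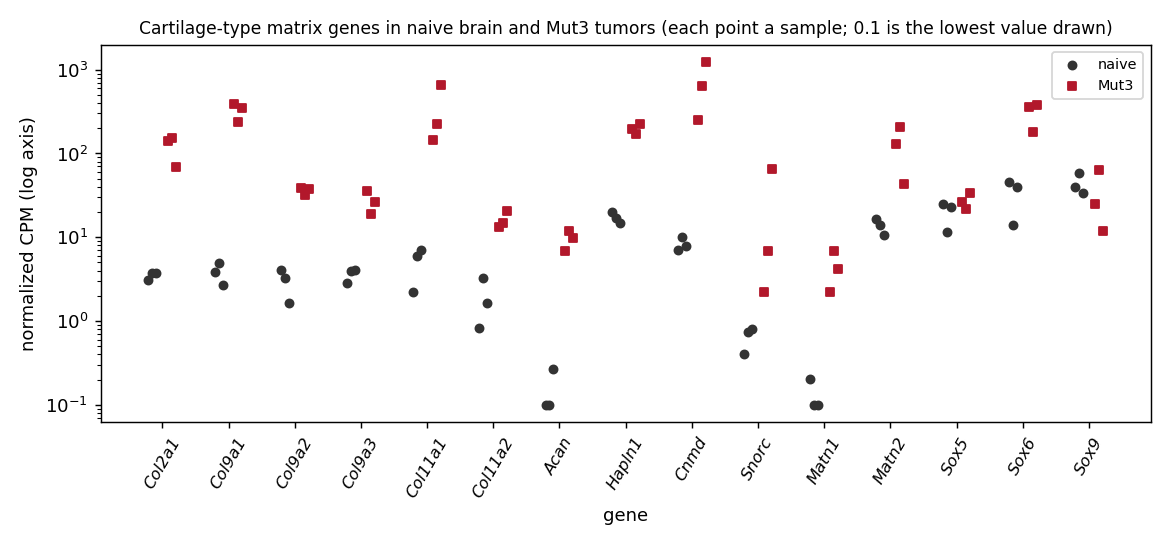
Normalized CPM (log axis) of cartilage-type matrix genes (x axis) in the 3 naive brains (circles) and the 3 Mut3 tumors (squares), with samples below 0.1 drawn at 0.1. The genes were chosen after values were seen, and the groups overlap for Sox5 and Sox9 alone among those drawn.

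The matrix proteoglycans of brain split. Of 11, 5 were called higher (45.5%, against 17.9% of all tested genes) and 4 lower (36.4%, against 19.8%). Vcan, versican, stood at 619, 409 and 485 in Mut3 and at 4.28, 16.2 and 4.33 in naive brain (5.93, SE 0.78, adjusted p = 0.000216). Hapln1, which links hyaluronan to proteoglycans, stood at 196, 172 and 226 against 20.2, 17.2 and 14.9 (3.50, SE 0.73, adjusted p = 0.002132), and Tnr, tenascin R, rose by 2.97. Acan, aggrecan, had 1 count in all of naive brain and stood at 6.82, 11.95 and 9.67 in Mut3, a 119-fold ratio with a 95% counting interval of 21.1 to 4710. Hapln4, a link protein of perineuronal nets, fell by 4.65. The calls of the other 3 lower members, Hapln2, Cspg5 and Ncan, were each lost when 1 of several libraries was left out, and 1 to 3 of the 4 remained called in these fits. Bcan, brevican, overlapped between the groups (0.65, adjusted p = 0.4015).

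Of 18 mesenchymal and invasion genes 11 were called higher (61.1%, against 17.9% of all tested genes) and 0 lower (median 1.85). However, 10 of 18 were lower than in the other tumors (against 12.3% of all tested genes). Mmp2, a gelatinase, stood at 139, 67.1 and 215 in Mut3 and at 3.67, 3.49 and 3.24 in naive brain (5.33, SE 0.68, adjusted p = 0.0001899). Vim, vimentin, rose by 4.02, Anxa2, a membrane-binding annexin, by 2.97, and Snai2, a factor of cell migration, by 2.87. The count was as low as 7 without naive replicate 1 or 2, and it was 4 on log2(TPM + 1). Of 20 collagens and matrix genes, 9 were called higher (45.0%, against 17.9% of all tested genes) and 0 lower, but 1 higher on log2(TPM + 1). Fbn1, fibrillin, rose by 4.26 and Bgn, biglycan, by 3.15.

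None of 17 tested RAS-ERK feedback genes was called higher, and 5 were lower than in naive brain (29.4%, against 19.8% of all tested genes). Of the 17, 10 were lower than in the other tumors (against 12.3% of all tested genes). These genes are switched on by ERK and curb it. Spry2 stood at 21.9, 17.2 and 17.2 in Mut3 and at 53.7, 35.1 and 43.5 in naive brain (−1.23, SE 0.26, adjusted p = 0.002173). Dusp6, an ERK phosphatase, stood at 14.0, 11.4 and 15.7 against 30.0, 39.1 and 27.9 (−1.23, SE 0.41, adjusted p = 0.02655), and its call was lost without any 1 of the Mut3 tumors and without naive replicate 2. Dusp5 fell by 2.10 and was lost without Mut3 replicate 1 or 3 or naive replicate 2, and Egr1, an early response factor, fell by 2.73. The list count went down to 3 in these fits.

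Of 18 receptor tyrosine kinases, 2 were called higher (11.1%, against 17.9% of all tested genes) and 5 lower (27.8%, against 19.8%). The higher count was 1 without Mut3 replicate 1 or naive replicate 1 or 3 and 0 on log2(TPM + 1), and the lower count was 3 without naive replicate 2. Erbb3, a neuregulin receptor, stood at 30.8, 24.7 and 12.5 against 1.84, 7.22 and 4.33 (2.35, SE 0.58, adjusted p = 0.005737). Ntrk2, the BDNF receptor, stood at 4.25, 13.1 and 10.6 against 231, 249.9 and 205 (−4.62, SE 0.77, adjusted p = 0.0007067), and Kit, the stem cell factor receptor, fell by 3.94. Egfr had a log2 fold change of 0.98 and was not called. Of 17 tested p53 targets, 4 were called higher and 4 lower, shares of 23.5% each that lie near those of all tested genes (17.9% and 19.8%), and 0 were higher and 3 lower on log2(TPM + 1). Eda2r, a TNF receptor family member, had 2 counts in naive brain and 98 in Mut3. Phlda3, an AKT repressor, stood at 0.224, 0.252 and 0.176 against 3.67, 5.73 and 2.16 (−4.07, SE 0.59, adjusted p = 0.000376). Its Mut3 values lie below the floors and rest on few counts. Cdkn1a, the p21 gene, had a log2 fold change of 0.85 and was not called.

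Of 17 imprinted and fetal growth genes, 3 were called higher (17.6%, against 17.9% of all tested genes) and 6 lower (35.3%, against 19.8%), and 3 lower without naive replicate 2. Myc stood at 158, 160 and 86.9 in Mut3 and at 4.49, 3.99 and 2.70 in naive brain (5.16, SE 0.53, adjusted p = 5.44e-05). Mycn, its neuronal relative, stood at 0.783, 0 and 0.440 against 3.88, 7.22 and 4.33 (−3.58, SE 1.07, adjusted p = 0.01651), a call lost without Mut3 replicate 3 and without naive replicate 2. H19, an imprinted RNA, stood at 132, 84.8 and 22.8 against 4.49, 8.97 and 6.76 (3.57, SE 0.54, adjusted p = 0.0004427). Its neighbor Igf2 fell by 3.65. Peg3, an imprinted zinc finger gene, stood at 1.68, 2.52 and 3.34 against 134, 118 and 72.5 (−5.41, SE 0.90, adjusted p = 0.0007198).

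Many genes of antigen presentation by MHC class I rose over naive brain. Of 14 genes, 8 were called higher (57.1%, against 17.9% of all tested genes) and 0 lower (median 1.89). Against the other tumors, 7 were lower (against 12.3% of all tested genes) and 0 higher. Psmb9, an immunoproteasome subunit, stood at 31.8, 91.5 and 283 in Mut3 and at 8.57, 7.72 and 4.33 in naive brain (4.29, SE 0.83, adjusted p = 0.001442). B2m, the light chain of class I, stood at 1039, 2763 and 4961 against 483, 395 and 564 (2.60, SE 0.57, adjusted p = 0.002933). Mut3 replicate 1 was the lowest and replicate 3 the highest for both genes, and the groups did not overlap. On log2(TPM + 1) 4 genes of this list were called higher and 1 lower. The summed TPM of the monocyte and macrophage list was also lowest in Mut3 replicate 1 (180, against 413 and 382 in replicates 2 and 3 and 115 to 156 in naive brain), and that of the T and NK cell list was highest in replicate 3 (25.7, against 8.81 and 8.63). Their part in the class I values was not tested. Psmb8 rose by 3.75 and H2-D1, a class I heavy chain, by 2.97, the latter uncertain because reads can be shared with other class I genes.

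Of 20 interferon-stimulated genes, 5 were called higher (25.0%, against 17.9% of all tested genes) and 0 lower than in naive brain, and 18 were lower than in the other tumors (against 12.3% of all tested genes). Bst2, tetherin, rose by 2.78 and Gbp3, a guanylate binding protein, by 2.41. The count of the list was as low as 2 when single libraries were left out and was 1 on log2(TPM + 1). Of 9 MHC class II genes, 3 were called higher (33.3%, against 17.9% of all tested genes), and 1 in the lowest of these fits. H2-Aa stood at 44.98, 158 and 422 against 37.7, 47.8 and 46.8 and overlapped (2.24, adjusted p = 0.02958, lost without Mut3 replicate 3 or any 1 of the naive samples).

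**Figure D5:**
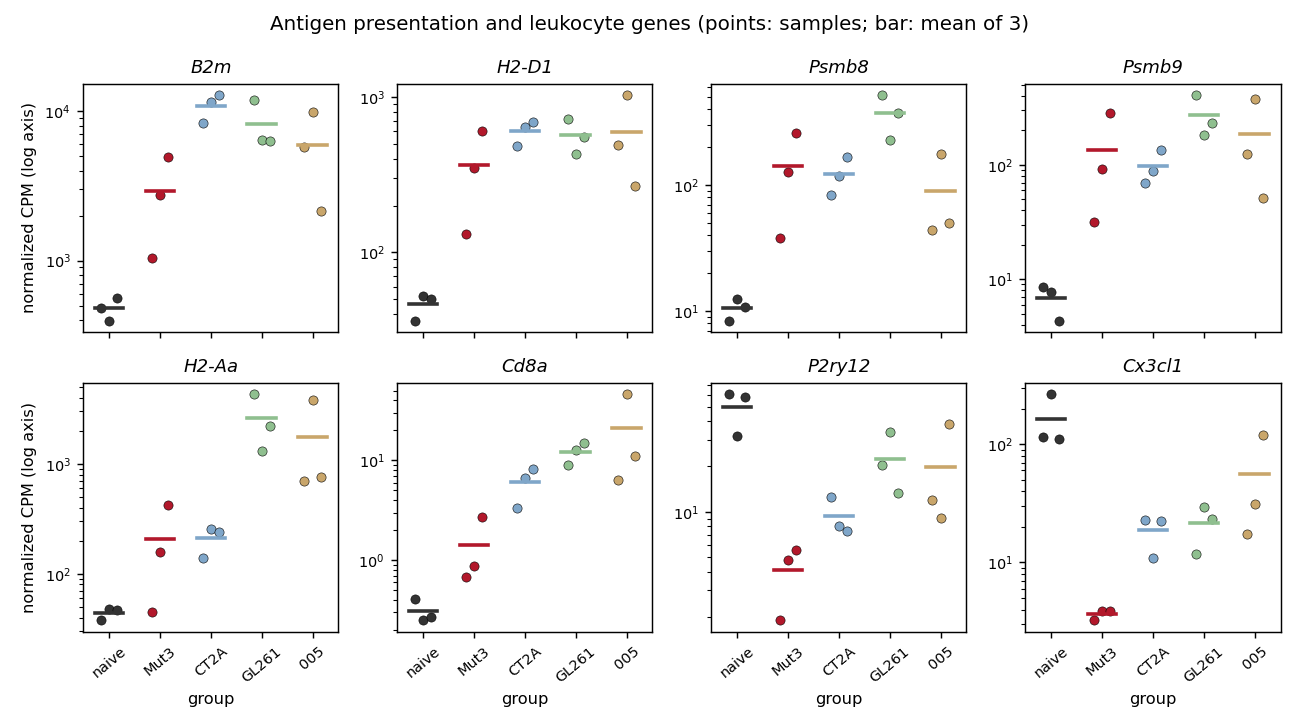
Normalized CPM (log axis) of antigen presentation and leukocyte genes in each sample of the 5 groups, with a bar at the mean of 3. B2m, H2-D1, Psmb8 and Psmb9 lie higher in Mut3 than in naive brain, and P2ry12 and Cx3cl1 lie lower.

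Few genes of leukocytes themselves passed the test against naive brain. Of 17 tested T and NK cell genes, 0 were called higher (against 17.9% of all tested genes) and 1 lower (5.88%, against 19.8%). Of the 17, 14 were lower than in the other tumors (against 12.3% of all tested genes). Cd8a stood at 0.671, 0.881 and 2.73 in Mut3 and at 0.408, 0.249 and 0.270 in naive brain, close to the floors (2.15, SE 0.95, adjusted p = 0.08458), while the other tumors ranged from 3.30 to 46.0. Of 17 monocyte and macrophage genes, 3 were called higher (17.6%, against 17.9% of all tested genes) and 1 lower (5.88%, against 19.8%). Among these 17, 12 were lower than in the other tumors (against 12.3% of all tested genes). Gpnmb, a glycoprotein of phagocytes, melanocytes and gliomas, stood at 320, 210 and 247 against 5.92, 10.5 and 6.22 (5.10, SE 0.42, adjusted p = 1.389e-05). Plac8 stood at 61.2, 552 and 334 against 4.49, 4.73 and 5.68 (5.99, SE 0.90, adjusted p = 0.0004427), and Lgals3, galectin-3, rose by 2.89. These 3 genes went up while Itgam, which encodes CD11b of myeloid cells, fell by 1.56.

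Of 14 genes of homeostatic microglia, the resident macrophages of brain, 8 were called lower (57.1%, against 19.8% of all tested genes) and 1 higher (median −1.67). Among the 14, 9 were lower than in the other tumors (against 12.3% of all tested genes). P2ry12, a purine receptor of resting microglia, stood at 1.90, 4.78 and 5.54 in Mut3 and at 60.2, 31.9 and 57.6 in naive brain (−3.61, SE 0.60, adjusted p = 0.0007155). Siglech fell by 3.14 and Cx3cr1, the fractalkine receptor, fell by 2.37. Csf1r, the receptor that microglia need to survive, had a log2 fold change of −1.15 that was lost without any 1 of the Mut3 tumors and without naive replicate 2.

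Of 16 chemokines and leukocyte growth factors, 11 were not called against naive brain, 1 was higher and 4 were lower (25.0%, against 19.8% of all tested genes, median −0.45), while 13 were lower than in the other tumors (against 12.3%). Cx3cl1, fractalkine, stood at 3.24, 3.90 and 3.87 against 116, 264 and 111 (−5.47, SE 0.72, adjusted p = 0.0002141). Cxcl12, a ligand that holds leukocytes in place, fell by 4.65, and Cxcl14 fell by 4.38. Il34, a ligand of Csf1r, fell by 3.33. Cxcl9, a T cell attractant, was higher (3.33, adjusted p = 0.0387), and its call was lost without Mut3 replicate 3 and without naive replicate 1 or 2. Ido1, which breaks down tryptophan, stood at 0, 0.126 and 0.0880 against 0.612, 8.97 and 6.76.

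Of 16 astrocyte genes, 8 were called lower (50.0%, against 19.8% of all tested genes), 1 higher and 7 were not called (median −1.70). Slc1a2, the main glutamate transporter, stood at 16.8, 55.4 and 26.6 in Mut3 and at 540, 1072 and 452 in naive brain (−4.39, SE 0.89, adjusted p = 0.001868). Gjb6, a gap junction protein, fell by 4.22, and Aqp4, the water channel of endfeet, stood at 3.69, 18.6 and 10.99 against 128, 87.2 and 123 (−3.34, SE 0.69, adjusted p = 0.001998). Gfap was the exception, at 29.4, 86.8 and 15.7 against 9.18, 6.48 and 6.49 (2.57, SE 0.59, adjusted p = 0.003972). On log2(TPM + 1) the call of Gfap was lost, and 0 of the 16 genes were called higher and 12 lower.

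Of 14 endothelial genes, 3 were called higher (21.4%, against 17.9% of all tested genes) and 0 lower (median 0.08), but 1 higher and 2 lower on log2(TPM + 1). Vwf, von Willebrand factor, stood at 17.0, 25.7 and 19.4 in Mut3 and at 4.28, 4.48 and 4.33 in naive brain (2.24, SE 0.47, adjusted p = 0.002351). Pecam1, which encodes CD31, had a log2 fold change of −0.98 (SE 0.25, adjusted p = 0.007513). It was not called because the change fell short of the fold threshold of 1. Of 14 angiogenic factors and tip cell genes, 4 were called higher (28.6%, against 17.9% of all tested genes) and 2 lower (14.3%, against 19.8%), with a median of 0.53, and on log2(TPM + 1) 2 were higher and 2 lower. Angpt2, a ligand that loosens vessels, stood at 22.7, 55.4 and 71.3 against 5.10, 2.99 and 2.16 (3.84, SE 0.51, adjusted p = 0.0002151), Esm1, a tip cell gene, rose by 4.78 and Vegfa by 2.06. Aplnr, the apelin receptor, rose by 3.25, a call lost without Mut3 replicate 3 and without naive replicate 1. Pdgfb, a ligand that recruits pericytes, fell by 2.06, and Unc5b, a netrin receptor, fell by 2.02, a call lost without naive replicate 2. Of 12 blood-brain barrier genes, 4 were called lower (33.3%, against 19.8% of all tested genes) and 0 higher (against 17.9%). Spock2, a proteoglycan, fell by 3.80. Abcb1a, the efflux pump P-glycoprotein, stood at 1.57, 2.64 and 1.32 against 157, 10.5 and 5.14, so naive replicate 1 stood far above the others (−4.97, SE 1.08, adjusted p = 0.00279), and the log2 fold change was −2.08 without it.

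Of 19 hypoxia and glycolysis genes, 7 were called higher (36.8%, against 17.9% of all tested genes) and 2 lower (10.5%, against 19.8%). As few as 4 were called higher without Mut3 replicate 1 or 2 or naive replicate 1. On log2(TPM + 1), 2 were called higher and 2 lower. Car9, a carbonic anhydrase of hypoxic cells, stood at 20.03, 11.7 and 7.30 in Mut3 and at 0.408, 0 and 0.541 in naive brain (5.29, SE 0.91, adjusted p = 0.0008418). Hk2, hexokinase 2, stood at 39.8, 17.6 and 12.7 against 1.43, 3.49 and 1.89 (3.36, SE 0.66, adjusted p = 0.001614). Ndrg1, which hypoxia is known to induce, went the other way and fell by 3.64. Of 15 serine synthesis and ATF4 genes, 6 were called higher and 0 lower (1 and 1 on log2(TPM + 1)), led by the mitochondrial folate enzymes Mthfd2 (2.98) and Shmt2 (2.25). All 13 protein genes of the mitochondrial genome were called lower (median −1.94), 9 to 13 when 1 library was left out and 13 on log2(TPM + 1). Of 20 nuclear genes of oxidative phosphorylation, 0 were called in either direction by edgeR on the counts (median −0.11), whereas 7 were called lower on log2(TPM + 1). Copies of mitochondrial sequence in nuclear DNA make the mitochondrial values uncertain.

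Tissue that can be taken along with brain also differed. The summed TPM of a choroid plexus and ependyma list was 111 to 173 in Mut3 and 284 to 1211 in naive brain, and that of a meningeal fibroblast list was 284 to 778 and 2502 to 6146. Of these lists 3 of 9 and 4 of 10 tested genes were called lower and 0 higher, and 0 to 2 and 1 to 3 when 1 library was left out. A red blood cell list held 276 to 483 TPM in Mut3 and 479 to 2662 in naive brain. The part of these tissues in other differences was not tested.

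By TPM, which is scaled per length, the largest gains lay in genes of translation. Of the 10 protein-coding genes called higher with the largest gain in mean TPM, 7 were ribosomal protein genes, led by Rps15a, and Snrpe and Dbi were among the others. Rps15a had a mean TPM of 10284 in Mut3 and 4270 in naive brain, and Dbi, the acyl-CoA binding protein, 6973 and 1682. Dbi stood at 6429, 8398 and 10503 normalized CPM against 1301, 720 and 1607 (2.80, SE 0.34, adjusted p = 0.0001578), and its mean in GL261 tumors was 8787. Ribosomal protein genes have many processed copies in the genome, so their values are uncertain. Of 826 tested processed pseudogenes, 295 were called higher and 9 lower, against 17.9% and 19.8% of all tested genes. Processed pseudogenes held 41.8% to 45.4% of the TPM in Mut3 and 32.8% to 37.5% in naive brain.

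Protein-coding genes with a mean TPM of at least 10 in Mut3 were ranked by fold change over naive brain. Among those that Mut3 also held above the other tumors, Fbp2, Cyct, Ly6g6c, Cnmd and Col9a1 ranked highest. The comparisons with naive brain and with the other tumors share the Mut3 samples, and the latter takes the mean of 3 lines. Fbp2, a fructose bisphosphatase, stood at 124, 66.7 and 49.7 in Mut3, at 0.204, 0.747 and 0 in naive brain and at 0.310 to 1.04 in the other tumors (7.91 over naive brain, SE 0.67, adjusted p = 1.389e-05). Cyct, the testis form of cytochrome c, stood at 40.6, 124 and 172 against 0.612, 0.747 and 1.35. For Cyct and Cnmd 1 other line was high as well, since GL261 tumors had a mean of 65.1 for Cyct, and Mut3 replicate 1 lay below the highest other tumor for both genes (78.8 for Cyct and 464 for Cnmd). Ly6g6c, a Ly6 family gene, stood at 4.36, 61.2 and 10.5 and had 3 counts in naive brain.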

How the data were processed

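RNA was sequenced from 3 naive brains and 3 tumors each of Mut3, CT2A, GL261 and 005 (per the labels 50 ng of RNA, whole transcriptome), and samples were grouped by their labels. The authors deposited expected counts per gene (estimated counts, with decimals) and TPM for the same genes. The extract protocol names STAR 2.4.2a, and the submitters' processing notes name Salmon, DESeq2 1.18.1 and mm10, with no role given. Estimated counts divide reads among similar genes, and TPM divides them by length and by a total that a few genes can move. The gene lists and the samples compared were chosen with earlier results of these data known.

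Counts were rounded and fitted over all 15 samples with edgeR 4.0.16 in R 4.3.3 (filterByExpr, TMM, quasi-likelihood F test, Benjamini-Hochberg adjustment over 17481 genes). Mut3 was compared with naive brain and, as a second contrast, with the mean of the other tumors. The labels number the replicates without naming a mouse, and the paper gives 3 mice in each group for its RNA sequencing. The p-values measure the spread between these samples within groups. An exact permutation test of 3 against 3 samples cannot go below p = 0.1 and was not used. Folds against a group with no counts were taken against a floor of 3 counts per library, and against 1 to 3 counts as ratios with a 95% exact interval. Named were up to 4 called members of each list and direction by fold change, defining members that were not called, the 10 protein-coding genes with the largest fold changes and the 10 with the largest TPM differences in each direction, 5 in each direction called in both contrasts, and the suppressors, of which the text gives a selection, and some genes are not reported here. B2m, Dlx1, Emx2, Pax6, Hoxa7, Hoxa10, Hoxc9, Hoxd8, Nkx2-2, Sox2, Snap25, Spry2, Tnr, Kif11, Mcm6, Sox5 and Sox9 fall outside this rule and were chosen after their values were seen. GENCODE M21 gave names and coordinates for 46269 of 46679 genes (GRCm38).

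Alternatives were DESeq2 1.42.0, library size scaling, other filters and thresholds, limma 3.58.1 on log2(TPM + 1 or + 0.1), a fit of the Mut3 and naive samples alone, the replicate number as a block, and each library left out. TPM rescaled to nuclear protein-coding genes, and leaving out mitochondrial genes together with naive replicate 2, were added after seeing the data. The fits were tested on simulated data.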

Additional observations from a re-analysis of the deposited data

Results flagged for a closer look

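Of the 139 genes named above, 92 also differed between Mut3 and the mean of the other tumors in the edgeR test of that difference (adjusted p under 0.05 and absolute log2 difference of at least 1), 40 of them higher and 52 lower in Mut3. Values here are log2 differences of Mut3 minus the other tumors. Those of Acan, Hoxa13, Hoxc9, Hoxd8, Ly6g6c, Fbp2, En2, Wnt7a, Ido1, Emx2, Lhx2, Mlip, Ajap1, Snai2 and Phlda3 rest on few counts in some group. Such values depend on the prior count. The contrast is with the mean of 3 lines. For 35 of the 40 genes the mean of Mut3 was above that of each other line, and for 22 of them every Mut3 tumor was above every other tumor. The other 5 were as high or higher in 1 line, with means of 8787 normalized CPM in GL261 and 8443 in Mut3 for Dbi, 971 and 79.7 for H19, 289 and 259 for Gpnmb, and 81.2 and 22.6 for Erbb3, and, for Snai2, 8.29 in CT2A and 3.47 in Mut3. All 52 lower genes had a mean below that of each line, and for 29 every Mut3 tumor was below every other tumor.

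Among glial progenitor genes the differences were 4.64 for Gpr17, 4.12 for Olig2, 2.97 for Cspg4, 1.66 for Nkx2-2 and 1.30 for Sox2. Among matrix genes they were 5.52 for Col9a1, 4.98 for Acan, 4.75 for Hapln1, 4.70 for Cnmd, 3.76 for Tnr, 3.42 for Col11a1, 3.23 for Mmp2, 2.91 for Bcan, 2.15 for Vcan, 1.91 for Sox5 and 1.59 for both Fbn1 and Snai2, with Hapln4 at −3.05. Bcan, Sox5 and Cnp (1.86) were not called against naive brain. Fbp2 (6.93), Ly6g6c (6.89) and Cyct (4.66) stood highest.

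Among cell division genes the differences were 1.58 for Gins2, 1.53 for Aurkb, 1.38 for Rrm2, 1.21 for Top2a and 1.14 for both Uhrf1 and Mcm6. Cdkn1c (3.72), Myc (2.14) and H19 (1.47) were higher, and Ccnd2 (−3.36), Peg3 (−3.88) and Igf2 (−2.21) lower. Of signaling genes, Erbb3 (1.28) was higher and Phlda3 (−3.79), Dusp6 (−2.93), Ntrk2 (−2.89), Dusp5 (−2.21), Kit (−2.08) and Spry2 (−1.36) were lower.

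Brain region factors lay at −3.59 for Emx2, −3.21 for Lhx2, −1.98 for Dlx1 and −1.92 for Pax6, and at 4.34 for Hoxa13, 3.79 for En2 and 2.60 for Hoxa5, with Hoxd8 at −5.07, Hoxa10 at −3.27 and Hoxc9 at −2.81. Neuronal and striatal genes lay at −5.73 for Grin2b, −4.97 for Mlip, −4.44 for Ajap1, −4.38 for Penk, −4.15 for Nrn1, −4.08 for Tac1, −3.86 for Rbfox1, −3.84 for Nefl, −3.73 for Gnao1, −3.25 for Snap25 and −3.22 for Syt1, with Wnt7a at −5.05. Myelin genes lay at −3.56 for Ermn and −3.55 for Mobp, and astrocyte genes at −3.28 for Gjb6, −2.82 for Aqp4 and −2.48 for Slc1a2.

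Immune genes were mostly lower, at −5.93 for Ido1, −3.13 for Cxcl9, −3.02 for Itgam, −2.98 for Cd8a, −2.94 for Cx3cl1, −2.46 for Cxcl12, −2.41 for Cx3cr1, −2.38 for Cxcl14, −2.31 for Siglech and Il34, −2.25 for H2-Aa and Gbp3, −1.97 for P2ry12, −1.80 for Bst2, −1.50 for Csf1r and −1.47 for B2m. Gpnmb (1.93) and Plac8 (1.74) were higher. Of vessel and metabolic genes, Angpt2 (1.64), Car9 (1.59), Vegfa (1.06) and Dbi (1.74) were higher and Ndrg1 (−2.67) and Unc5b (−2.13) lower; Dbi was low in CT2A and 005 alone (1219 and 1510).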

How the results depend on the processing

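Against naive brain 3135 genes were called higher and 3466 lower. A minimum of 10 counts in every Mut3 and naive sample gave 1810 and 2030, from fewer genes tested. limma on log2(TPM + 1) gave 1072 higher, on log2(TPM + 0.1) 1350, with any TPM above 0 988, and on TPM rescaled to nuclear protein-coding genes 1770; the cause was not tested. A fold change threshold of 2 on the log2 scale left 1666 higher. Leaving out 1 of the 6 libraries gave 2572 to 3206 higher and 2718 to 3271 lower. Against the other tumors 1418 were higher and 2145 lower, 751 and 1082 with at least 10 counts in every tumor, and 887 to 982 and 923 to 1345 without 1 Mut3 tumor, which leaves fewer samples. Without 005 replicate 3, where mitochondrial genes held 17.8% of the counts against 4.60% and 6.43% in the other 005 tumors, they were 1864 and 2198. With the replicate number as a block the counts were 2931 and 3265 against naive brain and 1245 and 1786 against the other tumors. Same-numbered samples did not deviate together (correlations −0.0037, 0.0317 and 0.0785), so the numbers were not taken as pairs, and not every sample correlated best with its own number.

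Of 125 named genes called against naive brain, 109 kept the call without each library in turn and 16 lost it without some library; DESeq2 kept 124. None of the 125 changed direction in any alternative. Among genes not called, Sox10 was −0.26, −0.27 and −0.26 in the 3 TPM fits and −0.08 on rescaled TPM, Sox5 −0.21, −0.29, −0.21 and −0.07 in the same fits, and Sox9 0.03 without naive replicate 2 and −1.23 without Mut3 replicate 2. Hoxa10 was −0.01, −0.12 and −0.01 in the 3 TPM fits and −0.54 to 1.44 without 1 library, the ends without Mut3 replicate 2 and naive replicate 2, and Hoxd8 was −0.01 with any TPM above 0 and on rescaled TPM, −0.26 without mitochondrial genes and naive replicate 2, and −0.63 to 0.71 without 1 library. Of 57 list counts, 9 stayed within 1.5 times in every alternative. Low depth in naive brain limits what can be said of genes near 3 counts.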

Other observations

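The lists in this section were chosen after their values were seen, and their counts describe the choice. Of 19 genes of cartilage matrix and its regulators, 15 were tested, 13 were higher in Mut3 than in naive brain and 14 higher than in the mean of the other tumors. GL261 tumors held much of this RNA as well, and their mean was above that of Mut3 for Col2a1 (256 against 121 normalized CPM) and Col9a2 (39.4 against 36.3). Col2a1, the main collagen of cartilage, stood at 141, 153 and 68.3 normalized CPM in Mut3 and at 3.06, 3.74 and 3.79 in naive brain (log2 fold change 5.09). Sox6, a factor of both cartilage and oligodendrocyte progenitors, was higher as well, while Sox5 and Sox9 were not called.

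Of 12 further genes of the oligodendrocyte lineage, 8 were higher and 1, Opcml, was lower than in naive brain, and 8 were higher than in the other tumors. Sox8, an oligodendrocyte lineage factor, stood at 158, 104 and 128 in Mut3 and at 9.996, 21.9 and 7.30 in naive brain (log2 fold change 3.31). Neu4, a sialidase, rose by 3.99 and Itpr2, a calcium channel of new oligodendrocytes, by 2.62 over naive brain, both also higher than in the other tumors.

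Both fructose bisphosphatase genes, Fbp1 and Fbp2, which lie on chromosome 13, were higher in Mut3 than in naive brain, by 5.47 and 7.91 on the log2 scale.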
